A study of Mus musculus with 9 samples.

Results

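The genes described here are the nuclear-encoded subunits of oxidative phosphorylation (OXPHOS) in mouse liver. They were taken by symbol from the table of read counts: protein-coding rows beginning with Nduf and a letter a, b, c, s or v plus a digit, Sdha to Sdhd, and rows beginning with Uqcr, with Cox and a digit from 4 to 8, or with Atp5. This gave 83 of the 42188 rows, of which 35 belong to complex I, 4 to complex II, 8 to complex III, 19 to complex IV and 17 to complex V. Ndufa4 and its relative Ndufa4l2 were placed with complex IV, where the Ndufa4 protein sits. The symbols also take in Cox7a2l, a factor that joins complexes III and IV into supercomplexes, and Atp5s and Atp5sl, which are not subunits of the ATP synthase.

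Oxidative phosphorylation is the last step of respiration in mitochondria. Complex I takes electrons from NADH and complex II, succinate dehydrogenase, takes them from succinate in the citric acid cycle. Complex III passes them on to cytochrome c, complex IV hands them to oxygen, and complex V, the ATP synthase, uses the proton gradient built on the way to make ATP. Most subunits are encoded in the nucleus, and a small core of all complexes but complex II is encoded in mitochondrial DNA. Hepatocytes are rich in mitochondria, and their respiration supplies urea synthesis and gluconeogenesis.

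Bulk RNA was sequenced from livers of wild-type mice labelled male, 8 weeks old and C57BL/6J (C57BL/6 in the strain field), with 3 libraries in each of 3 groups. In the MSA_ConA group MSA was given at 250 mg/kg by intraperitoneal injection, followed 6 h later by 20 mg/kg of concanavalin A (ConA), a lectin of jack beans used to set off T-cell-driven hepatitis in mice. The ConA group received the lectin alone, at 20 mg/kg through the tail vein, and the Control group received saline (PBS) by the same vein. The title of the study names mesaconate, and livers were taken 12 h after the lectin. The labels speak of 3 mice a group, so a p-value here measures the spread between 3 libraries. The comparisons address whether the lectin, and the agent given before it, change the livers. Levels are given as CPM (counts scaled to a common library size) adjusted by the trimmed mean of M values (TMM), and between genes as deposited FPKM, which is also divided by gene length. In bulk tissue, fewer cells of a type and less RNA per cell cannot be told apart.

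The libraries did not divide as their labels do. Xist, the female-specific transcript of X inactivation, stood at no more than 0.485 CPM in number 1 of each group, against 666 to 1130.4 CPM in the 6 libraries with number 2 or 3, although all mice are labelled male. Nnt, a gene disrupted in C57BL/6J mice and intact in some other C57BL/6 sublines, stood at 29.8 to 34.6 CPM in number 1, against 168 to 266 CPM in numbers 2 and 3, a level in numbers 2 and 3 that goes against the labelled C57BL/6J. The TMM factors were also apart, at 0.571, 0.673 and 0.950 in MSA_ConA 1, ConA 1 and Control 1 and at 1.11 to 1.26 in the other 6. A name such as ConA 1 therefore stands for the library labelled so. Each comparison is given over all libraries, within numbers 2 and 3, and within each number. Library totals lay between 13294600 and 17276391 counts, so that 3 counts equal 0.174 to 0.226 CPM. All 9 hepatocyte markers in the table were detected in all 9 libraries, and their summed level was 202316 CPM in MSA_ConA 1 and 101012 to 125389 CPM in the other 8. The markers did not move together. Fgb at 46832 CPM, Apoa1 at 25110, Tat at 15564, Apoc3 and Hpd were highest in MSA_ConA 1. Alb at 94091 CPM, Hnf4a at 676, Cps1 at 1772 and Ttr lay there within the range of the other 8.

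Of the 83 members, 80 passed the filter on low counts. Those that did not were Cox8c, a testis isoform with 0 counts, Cox4i2, a hypoxia-responsive isoform with 34 counts over the 9 libraries, and Cox6b2, another testis isoform with 55. Per length, the highest mean levels in complexes I to V were those of Ndufb9 at 321 FPKM, Sdhd at 154, Uqcr10 at 223, Cox6a1 at 571 and Atp5a1 at 367. The median subunit stood at 62.5 FPKM in complex I, 110 in complex II, 163 in complex III, 199 in complex IV and 79.6 in complex V, with alternative isoforms left out. Ndufb2, the lowest complex I subunit at 1.88 FPKM, has a deposited gene model of 5628 bases for a short protein, which lowers a level per length. Members varied unequally among libraries: the highest library held a median of 3.82 times the lowest in CPM in complex I, 1.62 times in complex II, 3.80 times in complex III, 4.20 times in complex IV and 3.72 times in complex V. The range was narrowest for Uqcrc2, a core protein of complex III, at 1.33-fold and for Sdha, the flavoprotein of complex II, at 1.41-fold. Ndufa1, a small X-linked complex I subunit, spanned 16.4-fold.

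Summed over all members, MSA_ConA 1, 2 and 3 held 25025, 9191 and 9716 CPM, ConA 1, 2 and 3 held 17102, 9669 and 8997 CPM, and Control 1, 2 and 3 held 19174, 12912 and 10754 CPM. The library numbered 1 was the highest of its group each time. As a share of all counts, with no TMM scaling, the members took 1.43%, 1.08% and 1.23% in MSA_ConA, 1.15%, 1.16% and 1.06% in ConA and 1.82%, 1.53% and 1.20% in Control, in the same order of numbers. On that scale the number 1 library led in MSA_ConA and Control and ConA 2 led in ConA.

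**Figure D1:**
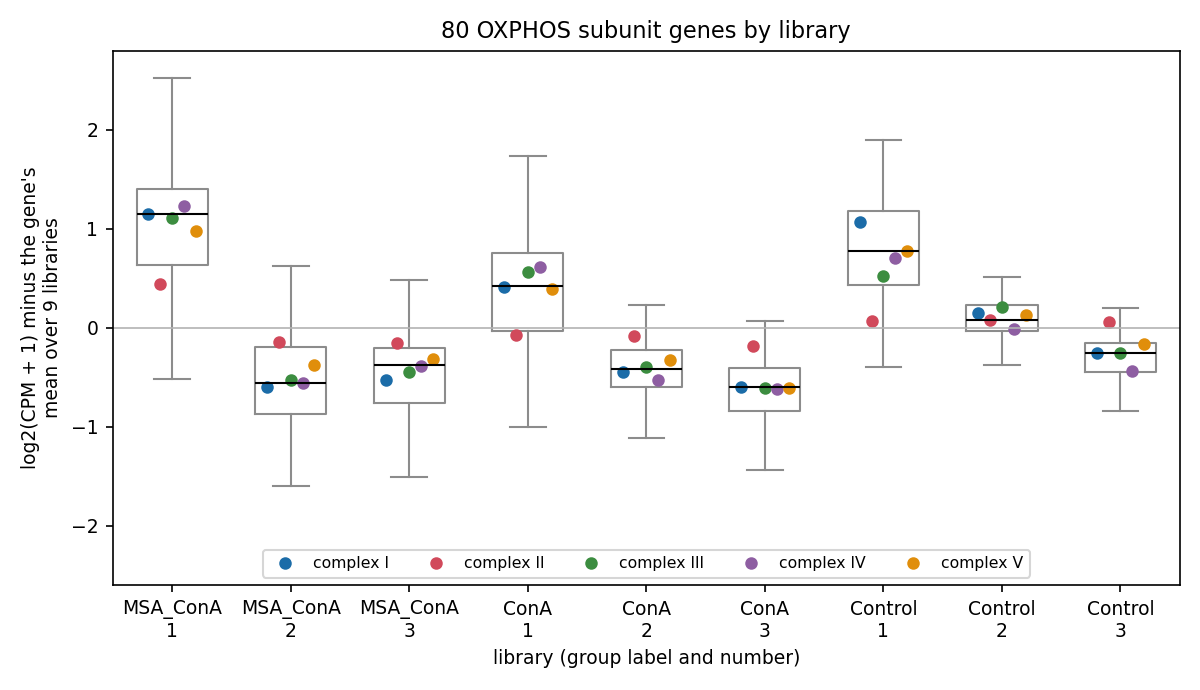
Level of the 80 tested members in each of the 9 libraries, as log2(CPM + 1) minus the gene's mean over the 9 libraries, with boxes for quartiles, a line for the median, whiskers to 1.5 times the box height, and points for the medians of complexes I to V. The medians stood at 1.15, 0.42 and 0.78 in MSA_ConA 1, ConA 1 and Control 1, and at -0.60 to 0.08 in numbers 2 and 3.

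Most subunits of complexes I, III, IV and V were higher in the libraries numbered 1 than in numbers 2 and 3, and no subunit of complex II passed the test. With group as a term in the model, 58 of the 80 members rose and 2 fell by edgeR's quasi-likelihood test at a Benjamini-Hochberg adjusted p under 0.05, where 19.1% of all 14603 genes tested rose, 19.2% fell and 38.3% did either. The median log2 fold change was 1.14 over the members, against -0.10 over all genes. In complex I 29 of 35 rose and 1 fell (median 1.20), in complex III 5 of 8 rose (1.04), in complex IV 13 of 16 rose and 1 fell (1.29), and in complex V 11 of 17 rose (1.11). In complex II 0 of 4 passed by edgeR or by DESeq2, and 0 of 4 had an unadjusted p under 0.05 (median 0.24). With library totals in place of TMM, all genes shifted to a median of -0.81. There 29 members rose and 8 fell, where 6544 of all 14603 genes did either. Counted in either direction, the members' share lay near that of all genes. The member median was 0.42, which lies 1.23 above that of all genes, against 1.25 with TMM. Complex II changed sign there, to a median of -0.50 with all 4 of its genes below 0 and 2 of them called lower, while the medians of the other 4 complexes stayed above 0. Without overlap, 47 members were higher in all 3 number 1 libraries than in all 6 others and 1 was lower, where 14.8% and 19.2% of all genes were.

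Among the accessory subunits of complex I, which surround the catalytic core, Ndufa1 measured 275, 159 and 178 CPM in MSA_ConA 1, ConA 1 and Control 1. In numbers 2 and 3 it stood at 17.6 and 17.3 in MSA_ConA, 21.2 and 16.7 in ConA, and 41.5 and 28.8 CPM in Control. All 3 number 1 libraries lay far above the 6 others, and Control was the highest group among the rest. The means were 204 ± 62.3 CPM in number 1 (SD, n = 3) and 23.9 ± 9.75 CPM in numbers 2 and 3 (SD, n = 6), and the log2 fold change was 3.17 (SE 0.29, edgeR Benjamini-Hochberg adjusted p = 0.000455). Ndufa13, also known as Grim19 and needed for complex I assembly, measured 229, 143 and 213 CPM in MSA_ConA 1, ConA 1 and Control 1, and 29.2 to 71.0 CPM in the other 6, a log2 fold change of 2.21 (SE 0.22, adjusted p = 0.000612). Ndufb9, the most abundant complex I transcript per length, averaged 368 ± 77.8 CPM in number 1 and 130.1 ± 35.9 CPM in numbers 2 and 3, and rose by 1.53 (SE 0.23, adjusted p = 0.00254).

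Ndufs1, the large iron-sulfur subunit of the core, went the other way. It measured 76.0, 58.5 and 80.0 CPM in MSA_ConA 1, ConA 1 and Control 1. Numbers 2 and 3 held 124 and 143 in MSA_ConA, 120.2 and 128 in ConA and 106 and 116 CPM in Control. The groups of numbers did not overlap, and it fell by 0.78 on the log2 scale (SE 0.19, edgeR Benjamini-Hochberg adjusted p = 0.0132). Among core subunits of the same complex, Ndufv1, which binds NADH, measured 294, 314 and 204 CPM in MSA_ConA 1, ConA 1 and Control 1, above the 118 to 179.5 CPM of the other 6. Subunits of one core therefore stood on opposite sides.

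The 4 subunits of complex II showed ranges that overlapped between the numbers. Sdha, the flavoprotein that oxidises succinate, averaged 437 ± 77.5 CPM in number 1 and 411 ± 30.3 CPM in numbers 2 and 3. Sdhb, the iron-sulfur subunit, measured 359.5, 195 and 374 CPM in MSA_ConA 1, ConA 1 and Control 1, and 189 to 274 CPM in the other 6. The lowest number 1 library, ConA 1, lay within the range of the others. Its log2 fold change was 0.40 (SE 0.20, edgeR Benjamini-Hochberg adjusted p = 0.136). The membrane anchors Sdhc and Sdhd gave 0.37 (SE 0.18, adjusted p = 0.137) and 0.10 (SE 0.22, adjusted p = 0.724). With library totals Sdhb, Sdhc and Sdhd turned to -0.32, -0.35 and -0.64.

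In complex III 5 of 8 members rose, the core protein gene Uqcrc1 and 4 small subunits. Uqcr11, a small membrane subunit, measured 367, 232 and 253 CPM in MSA_ConA 1, ConA 1 and Control 1, and 31.7 and 33.8 CPM in MSA_ConA, 52.9 and 33.1 in ConA and 105 and 62.0 in Control 2 and 3. Number 1 exceeded every other library, and the log2 fold change was 2.57 (SE 0.35, edgeR Benjamini-Hochberg adjusted p = 0.00172). Uqcrq and Uqcr10, other small subunits, rose by 1.87 (SE 0.31, adjusted p = 0.00341) and 1.54 (SE 0.30, adjusted p = 0.00573). Uqcrc2 averaged 254 ± 36.7 CPM in number 1 and 268 ± 26.9 CPM in numbers 2 and 3, and it was among the 3 members of the complex with no call, with Uqcrb and the Rieske protein gene Uqcrfs1.

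In complex IV, Cox4i1, the regulatory subunit that binds ATP, measured 1363, 1009 and 887 CPM in MSA_ConA 1, ConA 1 and Control 1, and 213 and 222 CPM in MSA_ConA, 248 and 214 in ConA and 383 and 307 in Control 2 and 3. The lowest number 1 library was still above the highest of the others, and the log2 fold change was 2.08 (SE 0.25, edgeR Benjamini-Hochberg adjusted p = 0.00105). Cox5b, a zinc-binding subunit, averaged 185 ± 35.2 CPM in number 1 and 35.8 ± 14.6 CPM in numbers 2 and 3 and rose by 2.42 (SE 0.24, adjusted p = 0.000644). Cox6a1, the liver form of subunit 6a, rose by 1.91 (SE 0.24, adjusted p = 0.00134). The member that fell in this complex was Cox8b, the muscle form of subunit 8, with a fitted log2 fold change of -6.40 (SE 2.02, adjusted p = 0.0463) that depends on the prior count because number 1 held 1 count in all. This call was lost with DESeq2, with limma on voom weights, with limma on log2(FPKM + 1), and on leaving out Control 3, ConA 1, ConA 2, MSA_ConA 1 or MSA_ConA 3, at adjusted p of 0.0504 to 0.266. The fitted value was -4.54 without MSA_ConA 3, which held most of its counts.

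In complex V, Atp5a1, Atp5b and Atp5c1 had no call. They encode the alpha and beta subunits of the head, where ATP is made, and the gamma subunit of the rotor stalk. The other members with no call were Atp5f1, Atp5s and Atp5sl. Atp5a1 measured 1754, 1487 and 1006 CPM in MSA_ConA 1, ConA 1 and Control 1 and 966 to 1098 CPM in the other 6. Control 1 lay within the range of the others. Its log2 fold change was 0.44 (SE 0.22, edgeR Benjamini-Hochberg adjusted p = 0.132), which passed at 0.68 (adjusted p = 0.00899) without Control 1 and turned to -0.30 with library totals. Atp5e, the epsilon subunit of the rotor stalk, measured 472, 256 and 415 CPM in MSA_ConA 1, ConA 1 and Control 1 where the others held 49.8 to 147 CPM, and rose by 2.36 (SE 0.29, adjusted p = 0.00118). Atp5j2, the membrane subunit f, and Atp5h, subunit d of the peripheral stalk, rose by 1.87 (SE 0.20, adjusted p = 0.000813) and 1.62 (SE 0.18, adjusted p = 0.000835).

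**Figure D2:**
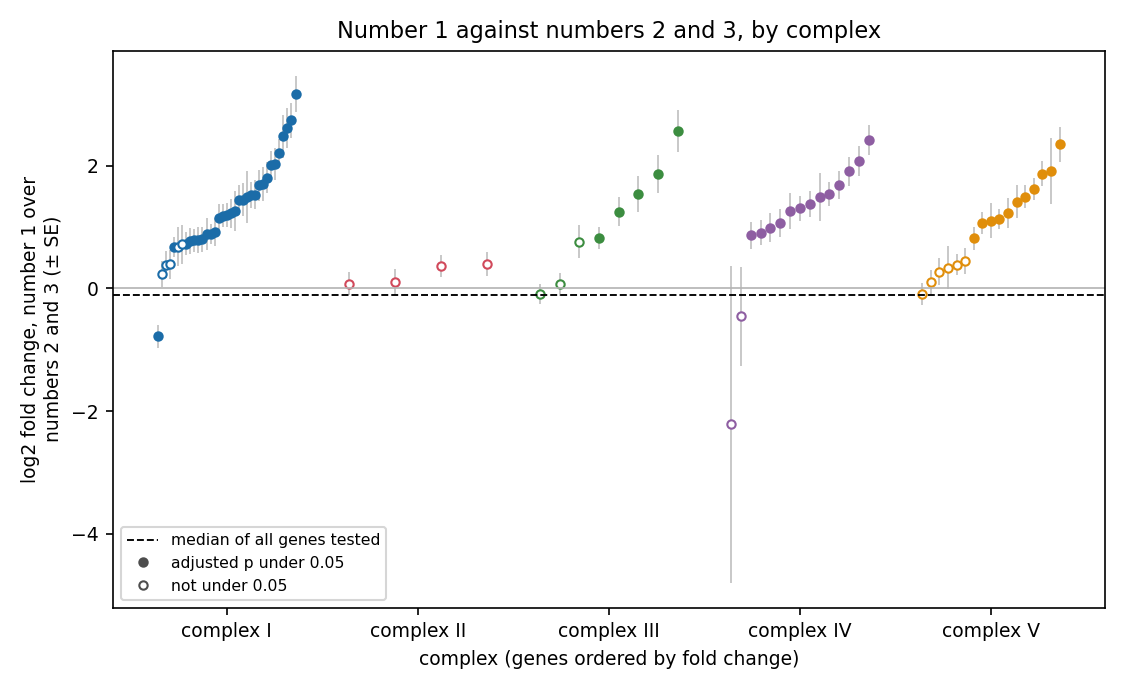
Fitted log2 fold change of each tested member, libraries numbered 1 over numbers 2 and 3, by complex, with group as a term. Filled points passed an adjusted p under 0.05, vertical lines are ± SE, the dashed line is the median of all genes tested (-0.10), and Cox8b at -6.40 lies off the axis; the complex medians were 1.20, 0.24, 1.04, 1.29 and 1.11 in complexes I to V.

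The same contrast was taken within the Control libraries, where no mouse had received lectin or MSA. Control 1 against Control 2 and 3 gave 48 members higher and 0 lower by edgeR, where 12.1% of all genes were called higher and 15.7% lower, with a member median of 0.91 and a median of -0.05 over all genes. Control 1 lay above both other Control libraries for 69 members and below both for 7, where 41.9% and 45.2% of all genes did so. By complex, 27 of 35 rose in complex I (median 1.04), 0 of 4 in complex II (0.04, with 2 at an unadjusted p under 0.05), 3 of 8 in complex III (0.60), 9 of 16 in complex IV (1.04) and 9 of 17 in complex V (0.83). Ndufa1 rose by 2.34 (SE 0.24, edgeR Benjamini-Hochberg adjusted p = 0.00178), Cox4i1 by 1.36 (SE 0.20, adjusted p = 0.00526) and Atp5h by 1.81 (SE 0.23, adjusted p = 0.0033). Ndufa3, a membrane-arm subunit, measured 209 CPM in Control 1 and 58.7 and 38.4 CPM in Control 2 and 3, a log2 fold change of 2.11 (SE 0.26, adjusted p = 0.00308). Uqcr11 rose by 1.60 (SE 0.35, adjusted p = 0.0154), a call that was lost without Control 3 (adjusted p = 0.0657), when 23 members were called in all. This contrast rests on a single Control 1 library, assumed to vary like the others, and with library totals 28 members rose and 2 fell.

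The shortest members lay farthest apart between the numbers. Coding length was available for 79 tested members (all but Atp5sl), and across these genes it had a Spearman rho of -0.47 with the log2 fold change of number 1 over numbers 2 and 3. Over 12005 tested genes with a length rho was -0.14. Transcript length had a rho of -0.42 over members and -0.27 over all genes, and GC content of 0.29 and 0.37. Genes share the same libraries and are not independent. Members with under 500 coding bases had a median of 1.41 (n = 49), those with 500 to 999 bases 0.80 (n = 19) and longer ones 0.67 (n = 11). All tested genes in the same classes had medians of 0.53, 0.08 and -0.18, so the members lay above all genes of their own length class, while short genes in general were also higher in number 1. Called higher were 41, 11 and 6 members in the 3 classes, where 38.6%, 23.9% and 15.6% of all genes were. The part of transcript length and of GC content in the difference was not tested. Of the X-linked members, Ndufa1 was the farthest apart, and Ndufb11 and Cox7b gave log2 fold changes of 0.78 and 1.38, near the member median.

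**Figure D3:**
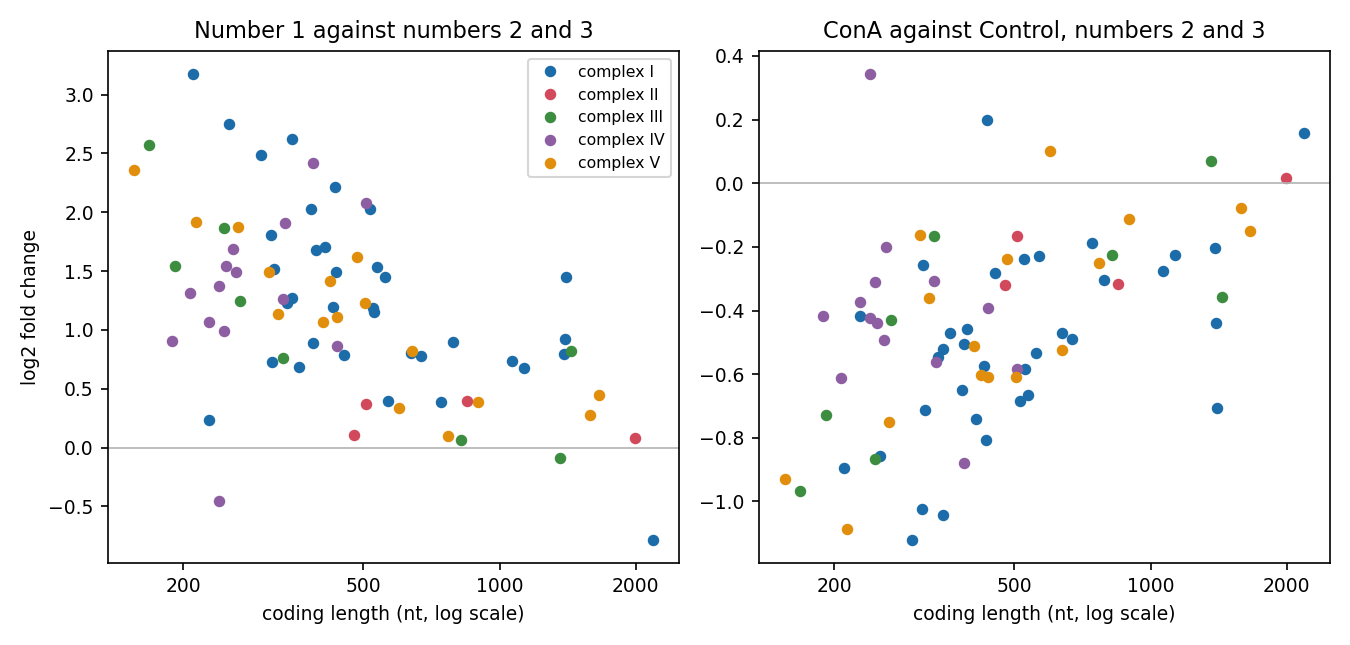
Coding length in bases (log axis) of the tested members against the fitted log2 fold change, with number 1 over numbers 2 and 3 in one panel and ConA over Control in numbers 2 and 3 in the other; Cox8b and Cox6a2 lie off the axes. Short members sit highest in the contrast of numbers (rho -0.47) and lowest in the contrast of ConA with Control (rho 0.39).

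Promoter letters of the members are shown because so many moved together. RefSeq promoters (GRCm38.p6, 250 bases before to 50 after the gene start) were found for 65 of the 83 members. The letters GCATGCGC, the core bound by the respiratory factor NRF1, stood on either strand in 10 of them (15.4%), against 3.05% of 27025 genes. The ETS letters CCGGAAGT, read by GABP, stood in 5 (7.69%, against 4.31%), the YY1 letters AAGATGGCG in 7 (10.8%, against 1.64%) and the ERR letters TCAAGGTCA in 2 (3.08%, against 0.466%), and any of the 4 in 23 (35.4%, against 8.93%). Capitals mark the matches in the stretches that follow, given 5' to 3' on the gene's strand. The NRF1 letters overlap their own reverse complement in GCGCATGCGC, which then counts on both strands. Uqcr11 (chr10:80406818-80406921, minus strand) holds an ETS and an NRF1 match, Atp5k (chr5:108434400-108434499, minus strand), Ndufa11 (chr17:56717662-56717761, plus strand) and Cox6a1 (chr5:115349059-115349158, minus strand) hold an NRF1 match, and the muscle isoform gene Cox8b (chr7:140900447-140900546, minus strand) holds none of the 4 in its window.
Uqcr11: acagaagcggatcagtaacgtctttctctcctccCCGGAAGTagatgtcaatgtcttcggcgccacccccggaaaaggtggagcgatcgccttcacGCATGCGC
Atp5k: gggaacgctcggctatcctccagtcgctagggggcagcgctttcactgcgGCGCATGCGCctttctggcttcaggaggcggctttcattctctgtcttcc
Ndufa11: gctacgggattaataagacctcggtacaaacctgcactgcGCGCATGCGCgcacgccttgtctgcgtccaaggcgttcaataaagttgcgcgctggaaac
Cox6a1: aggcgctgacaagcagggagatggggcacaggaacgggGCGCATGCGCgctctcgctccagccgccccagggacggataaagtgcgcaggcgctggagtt
Cox8b: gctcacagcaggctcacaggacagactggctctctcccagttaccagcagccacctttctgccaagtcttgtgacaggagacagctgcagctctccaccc

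Members with the NRF1 letters had a median log2 fold change of 1.59 between number 1 and numbers 2 and 3 (n = 10), and those without had 1.17 (n = 54). For the ETS letters the medians were 1.31 with (n = 5) and 1.19 without (n = 59). The YY1 and ERR letters went the other way, at 1.14 with (n = 7) and 1.23 without (n = 57), and 0.76 with (n = 2) and 1.21 without (n = 62). A match of letters is a description of the window and not a bound site.

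ConA against Control over all 9 libraries called no member. By edgeR 0 members passed, as did 0% of all genes, and 0 members had an unadjusted p under 0.05, where 3.86% of all genes did. With the library number as a block, 12 members and 637 of 14603 genes had an unadjusted p under 0.05 by edgeR, and 0 members were called. DESeq2 also called 0 members. The fitted value was below 0 in 67 of the 80 members, where it was in 44.7% of all genes, with a member median of -0.42 and a median of 0.07 over all genes. Complex medians were -0.58, -0.22, -0.30, -0.22 and -0.45 for complexes I to V. The smallest p was that of Ndufc1, a small membrane-arm subunit, which measured 29.2, 36.4 and 37.5 CPM in ConA 1, 2 and 3 and 68.0, 57.7 and 40.6 CPM in Control 1, 2 and 3. All ConA values lay below all Control values, with a log2 fold change of -0.69 (SE 0.31, edgeR unadjusted p = 0.0505, adjusted p = 0.9997). Ndufb4 gave -1.01 (SE 0.49) and Sdhb -0.55. Without overlap, 11 members were lower in ConA and 0 higher, where 6.64% and 5.66% of all genes were. The median depended on the libraries numbered 1, at -0.02 without Control 1 and -0.78 without ConA 1.

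Within numbers 2 and 3, nearly all members lay lower in ConA than in Control, and none passed the adjusted threshold. The fitted value was below 0 in 72 of 80 members, where it was in 47.5% of all 14851 genes tested, and the member median was -0.43, against 0.02 over all genes. By edgeR 0 members and 0% of all genes were called. At an unadjusted p under 0.05 stood 45 members, where 11.7% of all genes did, and the smallest adjusted p was 0.423. Both ConA libraries lay under both Control libraries for 63 members and over them for 4, where 23.6% and 23.9% of all genes did so. DESeq2 called 8 members lower (Cox4i1, Uqcrq, Atp5e, Ndufa2, Ndufa3, Ndufa1, Ndufs6 and Ndufb3), where it called 0.633% of all genes, and edgeR with no filter called 16, 14 lower and 2 higher, and 1.28% of all genes. Without Control 2 the member median was -0.26, where all genes had 0.02, and without ConA 3 it was -0.42, where all genes had -0.002. Each of these fits leaves 1 library in a group, so only the medians are given. Complex medians were -0.50, -0.24, -0.39, -0.41 and -0.38 for complexes I to V. The summed level of leukocyte markers was 122 and 114 CPM in ConA 2 and 3, 173 and 126 CPM in Control 2 and 3, and 451 CPM in ConA 1. S100a9 alone held 1.13 and 0.567 CPM in ConA 2 and 3, 1.51 and 0.364 CPM in Control 2 and 3, and 261 CPM in ConA 1. Whether the lectin had set off hepatitis in ConA 2 and 3 was not tested.

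Of complex I, 33 of 35 members lay lower in ConA, and 22 had an unadjusted p under 0.05. Ndufb3, an accessory subunit of the membrane arm, measured 21.1 and 15.8 CPM in ConA 2 and 3 and 44.8 and 29.9 CPM in Control 2 and 3. ConA 2 lay below Control 3, and the log2 fold change was -1.02 (SE 0.24, edgeR adjusted p = 0.423). Ndufa1 gave -0.89 (SE 0.21) and Ndufb9 -0.66 (SE 0.20) at the same adjusted p. Ndufs1 and Ndufa12 were the exceptions of the complex, at 0.16 and 0.20. In complex II 0 of 4 had an unadjusted p under 0.05, and the 2 smallest belonged to Sdhd at -0.32 (SE 0.14, adjusted p = 0.43) and Sdhb at -0.32 (SE 0.17, adjusted p = 0.473).

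In complex III, Uqcrq measured 208 and 148 CPM in ConA 2 and 3 and 393 and 253 CPM in Control 2 and 3, a log2 fold change of -0.87 (SE 0.25, edgeR adjusted p = 0.423). Uqcr11 gave -0.97 (SE 0.29) and Uqcr10 -0.73 (SE 0.22), while Uqcrc2 lay level at 0.07. In complex IV, 10 members had an unadjusted p under 0.05. Cox4i1 measured 248 and 214 CPM in ConA and 383 and 307 CPM in Control, at -0.58 (SE 0.17), and Cox8a, the common form of subunit 8, gave -0.61 (SE 0.20). In complex V, Atp5e measured 72.8 and 53.7 CPM in ConA and 147 and 93.1 CPM in Control, at -0.93 (SE 0.25), while Atp5a1 gave -0.15 (SE 0.15, adjusted p = 0.675). Atp5a1 and Uqcrc2, which encode large subunits, thus lay nearer to Control than the small subunits named here. Coding length and fold change had a rho of 0.39 over members and 0.29 over all genes here, and GC content of -0.42 and -0.48. Medians by length class were -0.50, -0.32 and -0.20 in members and -0.21, -0.06 and 0.10 in all genes, with the shortest class first. Transcript length and GC content moved with the difference, and their part in it was not tested.

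Within each number, without a test because each ratio sets 1 library against 1 library, ConA lay below Control every time. The median log2 ratio of the members, on CPM + 1, was -0.45 for ConA 1 over Control 1, -0.56 for ConA 2 over Control 2 and -0.33 for ConA 3 over Control 3, where all genes had -0.05, 0.03 and 0.00. At least 1.5-fold lower in ConA were 29, 35 and 14 members in numbers 1, 2 and 3, where 29.7%, 5.05% and 4.27% of all genes were. In number 1 the share of members past that fold was near that of all genes, and in number 2 it was far above it.

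MSA_ConA against ConA gave 0 members called over all 9 libraries by edgeR, as for 0% of all genes, and 0 members at an unadjusted p under 0.05, where 1.7% of all genes were. Fitted values were above 0 in 76 of 80 members, with a median of 0.42 where all genes had 0.02, and without MSA_ConA 1 the member median was -0.32. DESeq2 called 0 members as well. Without overlap, 8 members were higher in MSA_ConA and 0 lower, where 2.33% and 2.54% of all genes were. Ndufv2, the 24 kDa core subunit of complex I, gave 0.58 (SE 0.34), Ndufc1 0.59 (SE 0.31) and Sdhb 0.49. Within numbers 2 and 3 the members were split, with 41 above and 39 below 0, where 50.6% of all genes lay below, and a median of 0.01. Both MSA_ConA libraries lay over both ConA libraries for 21 members and under them for 17, where 16.3% and 18.6% of all genes did so. By edgeR 0 were called there, as were 0% of all genes, DESeq2 called 0, and 3 had an unadjusted p under 0.05, where 5.27% of all genes did. Atp5h held 58.3 and 50.4 CPM in libraries 2 and 3 of MSA_ConA, against 34.3 and 32.0 CPM in those of ConA, at 0.72 (SE 0.20, edgeR adjusted p = 0.929). Atp5k, the membrane subunit e that helps ATP synthases pair, held 10.4 and 9.68 CPM there, against 28.0 and 14.9 CPM in ConA, at -1.09 (SE 0.34, adjusted p = 0.929). Neither passed, although MSA_ConA and ConA did not overlap for either gene.

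By number, the median log2 ratio of members, MSA_ConA over ConA, was 0.65 in number 1, -0.13 in number 2 and 0.14 in number 3. At least 1.5-fold higher in MSA_ConA were 48, 2 and 5 members, where 23.3%, 3.17% and 9.14% of all genes were. In number 1 all 5 complex medians lay higher in MSA_ConA, with medians of 0.80, 0.51, 0.65, 0.54 and 0.60 for complexes I to V. Marker lists of other cells differed between MSA_ConA 1 and ConA 1. The summed level of leukocyte markers was 115 CPM in MSA_ConA 1 (10 of 13 detected, with Itgam, Ly6g and Cd8a at 0) and 451 CPM in ConA 1 (12 of 13, with Itgam at 0). Biliary and mesenchymal markers, all 10 detected, summed to 233 CPM in MSA_ConA 1 and 1056 CPM in ConA 1, and Sox9 alone held 37.8 CPM in MSA_ConA 1 and 635 CPM in ConA 1. Heart and slow muscle markers summed to 485 CPM in MSA_ConA 1 (5 of 11 detected) and 36.3 CPM in ConA 1 (6 of 11), and Csrp3 alone held 481 CPM in MSA_ConA 1 and 32.9 CPM in ConA 1, with Myh6, Myh7, Myl3, Nppa and Tnni1 at 0 in both. White adipocyte markers summed to 732 CPM in MSA_ConA 1 (5 of 8 detected) and 301 CPM in ConA 1 (4 of 8), with Adipoq, Plin1 and Lep at 0 in both. The part of these cells in the members' difference was not tested.

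**Figure D4:**
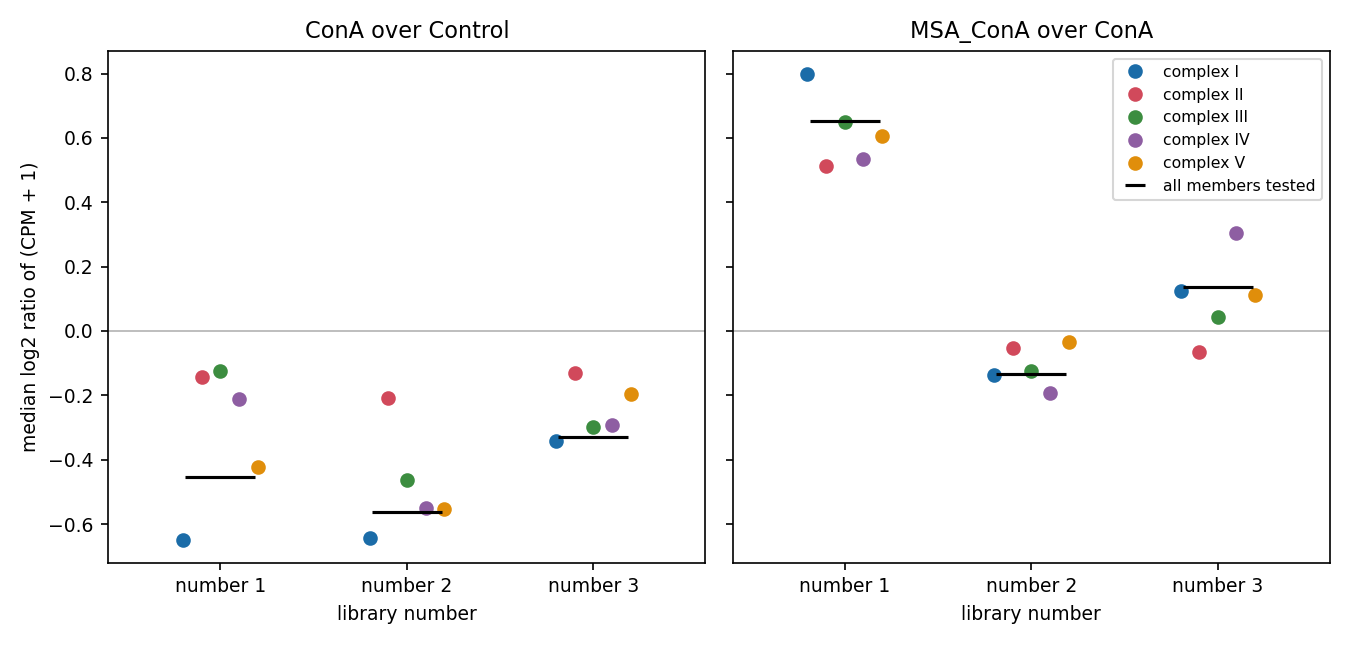
Median log2 ratio (CPM + 1) within each library number for MSA_ConA over ConA and ConA over Control, with points for complexes I to V and a bar for all 80 members. ConA lies below Control in all 3 numbers (-0.45, -0.56 and -0.33), and MSA_ConA lies above ConA by 0.65 in number 1 and between -0.13 and 0.14 in the others.

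MSA_ConA against Control shares the Control libraries with ConA against Control, so the values of both stand side by side and are not independent. Over all libraries 0 members were called, as were 0% of all genes, and 3 had an unadjusted p under 0.05, where 5% of all genes did. DESeq2 called 1, Cox8b, where it called 0.377% of all genes. The median was -0.01, with 37 members above and 43 below 0, where 44.4% of all genes lay below. Within numbers 1, 2 and 3 the median log2 ratio was 0.26, -0.59 and -0.17, and the value of number 1 turned to -0.45 with library totals. Atp5sl, which takes part in building the distal membrane arm of complex I, had a mean of 37.8 ± 5.78 CPM in MSA_ConA, 45.7 ± 3.17 in ConA and 63.1 ± 7.86 in Control (SD, n = 3 each). MSA_ConA and Control did not overlap, and its log2 fold change was -0.74 (SE 0.25, edgeR adjusted p = 0.937).

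Within numbers 2 and 3, 67 members lay lower in MSA_ConA than in Control, where 46.9% of all genes did, at a median of -0.42. Both MSA_ConA libraries lay under both Control libraries for 57 members and over them for 6, where 27.2% and 27.9% of all genes did so. By edgeR 0 members and 0% of all genes were called, and 43 had an unadjusted p under 0.05, where 24.2% of all genes did; the smallest adjusted p was 0.0829. Atp5k held 10.4 and 9.68 in MSA_ConA, against 57.2 and 33.4 CPM in Control 2 and 3, a log2 fold change of -2.17 (SE 0.35). Ndufa2, an accessory subunit of the matrix arm, held 21.2 and 22.7 in MSA_ConA, against 92.3 and 55.6 CPM in Control, at -1.75 (SE 0.29). Uqcrq gave -1.23 (SE 0.25) and Atp5e -1.18 (SE 0.25), each of the 4 at an adjusted p of 0.0829. DESeq2 called 33 members here, 31 lower and 2 higher (Cox6a2 and Cox8b), where it called 8.83% of all genes. EdgeR with no filter on low counts called 33 as well, 30 lower and 3 higher, where it called 5.81% of all genes. The call therefore depended on both the tool and the filter. Without MSA_ConA 2 the edgeR median of the members was -0.34, where all genes had 0.03.

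Whether the effects themselves differed between the numbers was tested with an interaction contrast. It leaves 3 residual degrees of freedom, and the single number 1 library of a group is taken to vary like the others. For ConA over Control, number 1 minus numbers 2 and 3, 3 members were higher and 3 lower by edgeR, where 15.6% and 15.4% of all genes were, and the member median was 0.09 against -0.09. The members' share was below that of all genes. The median turned to -0.45 with library totals, under which all genes shifted to -0.63. Ndufb4, a membrane-arm subunit, stood at 47.7 CPM in ConA 1 against 153 CPM in Control 1. In numbers 2 and 3 the ConA libraries held 50.1 and 42.8, and the Control libraries 76.9 and 54.5 CPM. The difference of its log2 effects was -1.18 (SE 0.33, edgeR Benjamini-Hochberg adjusted p = 0.0342). For Ndufv1, ConA 1 held 314 CPM and Control 1 held 204 CPM, where ConA 2 and 3 held 135 and 124 and Control 2 and 3 held 179.5 and 171, a difference of 1.06 (SE 0.27, adjusted p = 0.023). Ndufb4 lost its call without Control 3, ConA 2 or ConA 3, and Ndufv1 lost its call without Control 2, ConA 2 or ConA 3 and with library totals. More members were called without Control 2 than in the main fit, and fewer without Control 3, ConA 2 or ConA 3. The member medians were -0.20, 0.25, 0.17 and 0.005 in that order, where all genes had -0.14, -0.12, -0.04 and -0.13.

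For MSA_ConA over ConA, 11 members had a larger ratio in number 1 and 0 a smaller one by edgeR, where 8.61% and 10.1% of all genes did, with a member median of 0.72 against -0.01. Of the 11, 7 belong to complex I. Ndufa5, an accessory subunit of the matrix arm, stood at 169.9 CPM in MSA_ConA 1 against 42.4 CPM in ConA 1, and at 33.1 and 41.2 in MSA_ConA against 36.8 and 36.2 in ConA in numbers 2 and 3. Its difference was 1.98 (SE 0.36, edgeR Benjamini-Hochberg adjusted p = 0.0122). Ndufc2, the partner of Ndufc1 in the membrane arm, measured 91.0 CPM in MSA_ConA 1 and 33.8 CPM in ConA 1, where the other 4 libraries held 26.6 to 37.4 CPM, a difference of 1.70 (SE 0.30, adjusted p = 0.0114). Ndufa4, the complex IV member, measured 526 CPM in MSA_ConA 1 and 236 CPM in ConA 1, and 158 to 180.2 CPM in the other 4, a difference of 1.16 (SE 0.30, adjusted p = 0.0382). Ndufa5 and Ndufc2 kept their call under every alternative run, and Ndufa4 lost it with library totals, with limma-voom and on leaving out number 2 or 3 of MSA_ConA or ConA. Fewer members passed than in the main fit without ConA 2, ConA 3, MSA_ConA 2 or MSA_ConA 3. The member medians were 0.68, 0.73, 0.69 and 0.72 there, where all genes had -0.06, -0.01, -0.003 and -0.03. With library totals fewer members passed as well, at a median of 0.43 where all genes had -0.28.

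Complex IV has forms of some subunits that are made chiefly in heart and skeletal muscle, and these followed other libraries than the common forms did. Cox6a2, the muscle form of subunit 6a, stood at 1.44 and 24.4 in MSA_ConA 2 and 3, 3.14 and 0.340 in ConA 2 and 3, 0.521 CPM in Control 1 and 0 in the other 4 libraries. Cox8b stood at 1.94 and 22.6 in MSA_ConA 2 and 3, 2.37 and 0.227 in ConA 2 and 3, 0.132 CPM in MSA_ConA 1 and 0 in the other 4. Both were therefore far highest in MSA_ConA 3. The Cox6a2 share of counts of both subunit 6a forms was 12.7% in MSA_ConA 3 (Wilson 95% interval 11.7 to 13.9), 0.778% in MSA_ConA 2 (0.531 to 1.14) and 1.54% in ConA 2 (1.20 to 1.97). Control 2, with 0 of 5973 counts, allows a share of up to 0.0502% by the limit of 3 counts (Wilson upper bound 0.0643%). The Cox8b share of subunit 8 was 21.4% in MSA_ConA 3 (19.7 to 23.2) and 3.16% in ConA 2 (2.38 to 4.19), and Control 2 with 0 of 2240 counts allows up to 0.134% by 3 counts (Wilson upper bound 0.171%). Cox7a1, the muscle form of subunit 7a, took 7.70% in MSA_ConA 3 (6.66 to 8.88) and 1.95% in ConA 2 (1.43 to 2.67). These intervals and limits cover counting error only.

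Skeletal muscle genes moved with these forms. Summed over the 14 markers, MSA_ConA 1, 2 and 3 held 120.6, 360.3 and 4880 CPM, ConA 1, 2 and 3 held 3.20, 384 and 67.0 CPM, and Control 1, 2 and 3 held 1.56, 2.40 and 0.935 CPM. Acta1, skeletal actin, measured 1469 CPM in MSA_ConA 3 and 0 CPM in Control 1 and Control 3, and in MSA_ConA 1 the sum was nearly all Atp2a1, a calcium pump of fast fibres, at 119 CPM. The libraries with the most Cox6a2 and Cox8b were those with the most muscle transcripts, and the part of muscle RNA in their levels was not tested. Ndufa4l2, a hypoxia-inducible relative of Ndufa4, behaved otherwise: it took 2.64% of the pair's counts in ConA 1 (2.08 to 3.34) and 0.449% to 1.05% in the other 8.

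**Figure D5:**
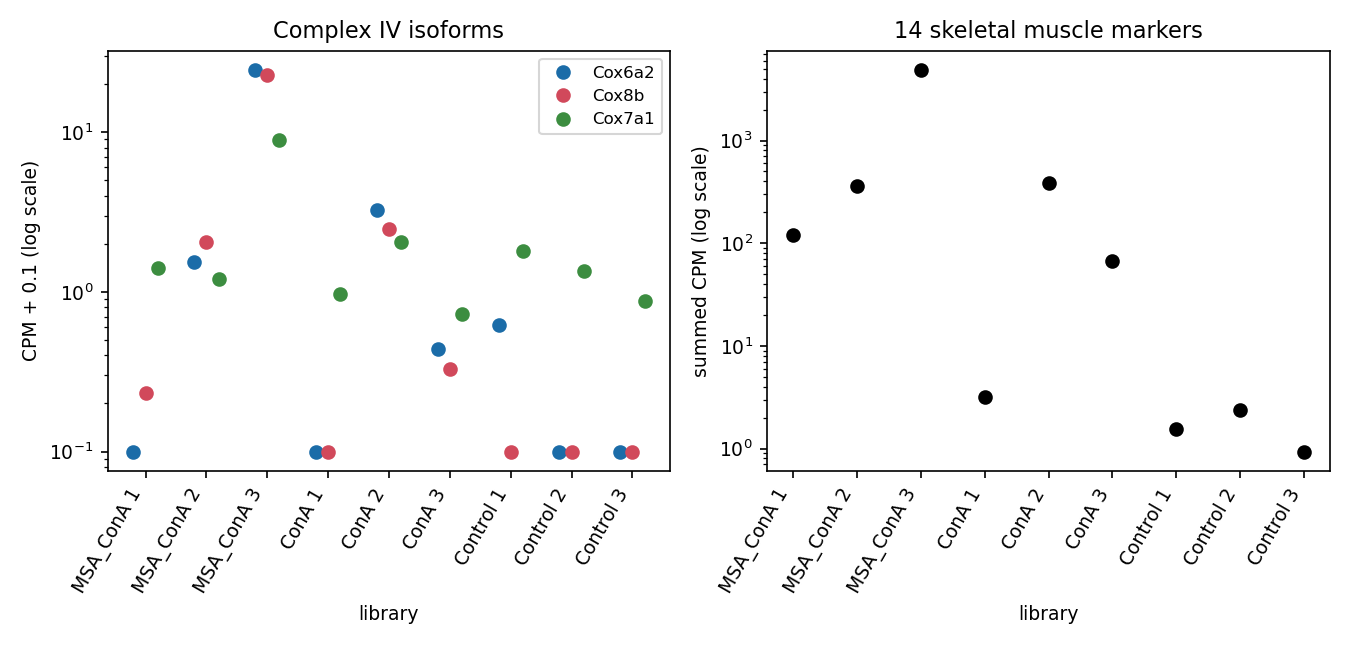
Muscle-type isoforms Cox6a2, Cox8b and Cox7a1 in each library (CPM + 0.1, log axis), beside the summed level of 14 skeletal muscle markers (CPM, log axis). The muscle forms and the marker sum are highest in MSA_ConA 3, where the sum is 4880 CPM, and the Control sums lie at 0.935 to 2.40 CPM.

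Other genes of the pathway were set beside the members between the numbers. Of 47 tested assembly factors, which build the complexes without staying in them, 7 rose and 8 fell in number 1, with a median of -0.21, where 19.1% of all genes rose and 19.2% fell. The counts of assembly factors lie near those shares. Of 12 regulators of mitochondrial biogenesis 3 rose and 5 fell, with a median of -0.56. Ppargc1a, the coactivator of the program, measured 7.90, 3.97 and 4.91 CPM in MSA_ConA 1, ConA 1 and Control 1 and 8.57 to 16.2 CPM in the other 6, a log2 fold change of -1.09 (edgeR Benjamini-Hochberg adjusted p = 0.013). Tfam, which packages mitochondrial DNA, gave -0.98 (adjusted p = 0.011), Gabpa, the DNA-binding chain of GABP, -0.89 (adjusted p = 0.015), and Nrf1 0.82 (adjusted p = 0.025). Most of these regulators therefore stood on the other side from the subunits. Cycs, somatic cytochrome c, rose by 1.05 (adjusted p = 0.003), Cyc1, the heme-bearing subunit of complex III outside the symbol rule, gave 0.55 (adjusted p = 0.057), and Ndufab1, the acyl carrier protein in complex I, gave 0.01 (adjusted p = 0.982).

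In ConA against Control in numbers 2 and 3, 33 of the 47 assembly factors lay lower at a median of -0.20, against 72 of the 80 subunits at -0.43, and Cyc1 gave -0.41 (edgeR unadjusted p = 0.0325, adjusted p = 0.423). Mitochondrially encoded subunits could not be set beside the nuclear ones, since mt-Nd6 was the only one with a symbol in the table and had 0 counts.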

How the data were processed

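Liver RNA was isolated with Trizol, and an Illumina kit was used on total RNA, per the labels' protocols. The authors deposited raw read counts per gene for 9 libraries. The deposited FPKM values are those counts divided by gene length and by 1 total per library, as the 2 tables show when set side by side. The submitters' processing notes name Bowtie 0.12.2 and 2 builds, mm8 and mm10, with no role for any. Aligner settings, counting tool and strand use: not given in the sources used here. Gene IDs in the tables are those of the C57BL/6NJ assembly, so coordinates are printed only for RefSeq promoters (GRCm38.p6). Pipeline-made gene models held 3.18% of the counts and stayed in the library sizes.

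Libraries were grouped by their titles, and columns M1 to M3 were assigned to MSA_ConA by that first letter. The batch tag repeats the group. Within each group, every pair of libraries differed by more than sampling noise. Counts were tested with edgeR 4.0.16 (R 4.3.3) by quasi-likelihood, with TMM, the default expression filter, and Benjamini-Hochberg adjustment over all 14603 genes tested (14851 within numbers 2 and 3), called at 0.05. SE is the log2 fold change over the root of F. CPM uses TMM-scaled totals. Depth of 13294600 to 17276391 counts a library limits what can be seen of genes near 3 counts. Alternatives were DESeq2 1.42.0 and limma 3.58.1, on voom weights and on log2(FPKM + 1). Further ones were other scalings and filters, the library number or its class (1, or 2 and 3) as a block, and leaving out each library. Functions were tested on simulated data.

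Same-numbered libraries deviated together from their group means (correlations of 0.489 to 0.720 in number 1, 0.364 to 0.575 in number 2, 0.337 to 0.493 in number 3). These lay over the bound of 0.1, so numbers were taken to pair libraries. Numbers 2 and 3 also correlated with each other, at 0.332 to 0.706. The check therefore could not tell number 2 from number 3, and the pairing within each of them rests on the titles alone. The block changed no call of a member in the group comparisons, with 0 members called. It did change the unadjusted edgeR p-values. ConA against Control held 12 members and 637 of 14603 genes under 0.05 with the block, and 0 members and 563 genes without it. With number 1 against numbers 2 and 3 as the block, these were 17 members and 1024 genes. The member median of MSA_ConA over ConA was 0.23 with either block and 0.42 without.

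Members, gene lists and the rule for named genes were chosen with earlier results of these data known. The rule names, in each complex, the genes with the smallest p, the highest FPKM and the value farthest from the complex median, plus tissue-restricted isoforms, the regulators and electron carriers. Ndufs1, Sdha, Uqcrc2 and the genes used as contrasts beside them were chosen after their values were seen. Promoters were searched for 4 letter strings on both strands. Esrra and Twnk were not analysed here.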

Additional observations from a re-analysis of the deposited data

Results flagged for a closer look

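The effect of ConA over Control differed between number 1 and numbers 2 and 3, by a test of the difference itself, in 6 members of 80, a smaller share than the 31% of all genes called in the same test. The log2 difference was 1.06 for Ndufv1, 0.95 for Cox7a2l, 0.87 for Atp5b, -1.18 for Ndufb4, -0.84 for Ndufv2 and -1.76 for Atp5s, all at an edgeR Benjamini-Hochberg adjusted p under 0.05. Atp5s kept its call under all alternatives run. Ndufb4 lost it under 3, Ndufv1 and Cox7a2l under 4 each, and Ndufv2 and Atp5b under 6 each, which included leaving out ConA 2 or ConA 3 for all 5 genes and library totals for Ndufv1, Cox7a2l and Atp5b. Atp5s measured 3.10 CPM in ConA 1 against 9.83 CPM in Control 1, while in numbers 2 and 3 ConA held 5.56 and 5.67 CPM and Control 5.42 and 5.04 CPM. Cox7a2l measured 152 CPM in ConA 1 against 97.1 CPM in Control 1, and lay lower in ConA in numbers 2 and 3.

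The effect of MSA_ConA over ConA differed in the same way, by the same test, in 11 members of 80, all with a larger ratio in number 1, where 18.7% of all genes were called in either direction and 8.61% with a larger ratio. In complex I the log2 difference was 1.98 for Ndufa5, 1.28 for Ndufa8, 1.25 for Ndufb4, 1.22 for Ndufb5, 1.70 for Ndufc2, 1.04 for Ndufv2 and 1.27 for Ndufv3. In complex IV it was 0.83 for Cox7a2l and 1.16 for Ndufa4, and among the Atp5 genes 2.47 for Atp5k and 1.55 for Atp5s. Ndufa5 and Ndufc2 kept their call under all alternatives run, Atp5k lost it without ConA 2 alone, and the other 8 lost it under 4 to 11 alternatives, leaving out ConA 2 or ConA 3 among them. Ndufb4, Ndufv2, Cox7a2l and Atp5s were called in both tests, which share the ConA libraries. Each test sets 1 library of a group against 2 and holds no replicate within number 1.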

How the results depend on the processing

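Depth was no limit for most members; Cox6a2, Cox8b, Cox4i2 and Cox6b2 had few counts in most libraries. In the counts and medians of members, 306 of the values under an alternative stayed near the main value and 36 did not. Counts called were near if equal, which includes 0 against 0, or at most 1.5-fold apart. Medians were near if they moved by less than the SD of library medians within groups. That SD was 0.695 for the group comparisons over all libraries, larger in size than each of their member medians (-0.42, 0.42 and -0.01). A median there could fall to 0 and still count as near. For the rest the SD was 0.173, taken from the libraries numbered 2 and 3 alone. The sign could change, as for MSA_ConA over Control, at -0.01 in the main fit and 0.30 without Control 1. For genes printed with a test, 1003 values kept the main result, called or not called. Of the rest, 86 lost a call, 23 gained one and 5 reversed in sign. The group comparisons called no member in the main fit, so their values had no call to keep.

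With library totals, calls numbered 37 (median 0.42) for number 1 over numbers 2 and 3, 30 (0.63) within Control, 15 (-0.45) for the difference of the ConA effect and 3 (0.43) for that of MSA_ConA over ConA, where all genes shifted by construction of the scaling. Sdhb (-0.32), Sdhc (-0.35), Sdhd (-0.64, adjusted p = 0.0157) and Atp5a1 (-0.30) then reversed between the numbers, and Sdhd also did when MSA_ConA 1 was left out (range over libraries left out -0.17 to 0.33). DESeq2 called 1 member in MSA_ConA over Control, 8 in ConA over Control and 33 in MSA_ConA over Control within numbers 2 and 3, and 10 and 25 in the 2 differences of effects. With no filter the calls were 16 for ConA over Control, 3 for MSA_ConA over ConA and 33 for MSA_ConA over Control within numbers 2 and 3, and 20 for the difference of MSA_ConA over ConA, for which limma-voom gave 5. The cause was not tested.

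Leaving out 1 library gave 0 calls in all cases for ConA over Control, MSA_ConA over ConA and MSA_ConA over Control, with medians of -0.78 to -0.02, -0.32 to 0.82 and -0.80 to 0.30. Within numbers 2 and 3 it gave 0, 0 and 0 to 4 calls and medians of -0.66 to -0.26, -0.06 to 0.09 and -0.52 to -0.22. For number 1 over numbers 2 and 3 it gave 47 to 60 calls (0.83 to 1.25), within Control 23 to 53 (0.71 to 1.14), and for the differences of effects 1 to 9 (-0.20 to 0.25) and 3 to 13 (0.68 to 0.73). With the library number as a block, 0 members were called in each comparison of groups.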
